A study of Mus musculus with 18 samples.

Results

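The histone mark H3K27me3 was compared between 6 single headfolds of B6 mouse embryos, 3 whose dams received vitamin C and 3 whose dams did not. They are the 6 B6 libraries with a peak list among 12 H3K27me3 peak lists and 18 samples in the series, chosen by background, antibody and diet in the sample labels. The headfold holds the early brain plate at the front of the embryo. It was taken at embryonic day 8.5, and each reaction used a single headfold. All embryos of both groups were Gulo-/-, so they lacked L-gulonolactone oxidase, the enzyme that completes vitamin C synthesis in mice, and depended on the vitamin C of their dam. The dams of the group labelled AAplus drank water with 3.3 g/l vitamin C, and those of the group labelled AAmin received none. Each group held 1 male and 2 female embryos per the labels, and their replicates are numbered 1, 2 and 4, with replicate 1 the male. The numbers follow accession order. The 3 embryos with vitamin C carried 1 pregnancy code, whereas the 3 without it carried 3 different codes, so diet and pregnancy cannot be told apart in the first group and its SD is a spread within 1 pregnancy. The libraries numbered 3 of both groups were not analysed here.

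H3K27me3 is the trimethylated form of lysine 27 of histone H3. Polycomb repressive complex 2 writes it, mostly over CpG-rich promoters of developmental regulators that the cell keeps silent, and Polycomb repressive complex 1 binds it. Kdm6 demethylases erase it, and they belong to the dioxygenases for which vitamin C acts as a cofactor. In the early neural plate the mark is known for broad domains over the Hox clusters and over regulators of other lineages. CUT&Tag reads it by tethering a transposase to the antibody and sequencing the DNA that is cut nearby.

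A coding gene counts as marked by a library if one of its peaks lay within 1 kb of either gene end, and 21887 coding genes were examined. The 6 lists differed in length, so each comparison was also made with equal lists, that is with the 748 peaks of largest total signal from every library, 748 being the length of the shortest list. A share of libraries is written as 3 of 3. Peak lists hold no read numbers, so depth is unknown. With 3 against 3 libraries an exact permutation test cannot give a p below 0.1, so no single comparison of diets could pass a threshold of 0.05.

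Once the lists were of equal length, 7 coding genes were marked in 3 of 3 libraries with vitamin C and 0 of 3 without (0.032% of the coding genes), and 6 showed the opposite pattern (0.0274%). The first set was Tubg2, a gamma-tubulin, Lhb and Ntf5, a hormone subunit and a neurotrophin that lie side by side, Tmem151a, Hap1, which encodes a partner of huntingtin, Prr36, and Epas1, a hypoxia-inducible transcription factor. The second set was Kcnk15, a potassium channel subunit, Pcdh10, a cell adhesion protein, Pax8, a transcription factor of kidney and thyroid, Myo15b, Trhde, which degrades thyrotropin-releasing hormone, and Ghsr, the ghrelin receptor. In the full lists none of these 13 genes separated the diets. Of the 7, 3 were marked in 3 of 3 with and 2 of 3 without and the other 4 in 1 of 3 without, and of the 6, 5 were marked in 6 of 6 libraries and Pcdh10 in 5 of 6. The identity of these genes depended on how the lists were cut: 1 of the 7 and 1 of the 6 kept the pattern with equal lists by maximum signal, 4 and 0 with lists of 500 peaks, 1 and 0 with lists of equal covered length and 1 and 0 with peaks at or above the median maximum signal. Leaving out replicate 2 without vitamin C, the shortest list, lengthened the equal lists, and none of the 13 kept the pattern. Leaving out other libraries raised the counts to as many as 47 genes only with vitamin C (without replicate 2 of that group), and leaving out that shortest list gave 23 only without it. The promoters of 6 of these genes are printed below because the peaks met the window at the start site in the same pattern of equal lists. The sequences run 5′ to 3′ from 250 bases before to 50 bases after the start and come from RefSeq, build GRCm38.p6, the assembly that mm10 stands for. Capitals mark the dinucleotide CG, which reads the same on both strands and does not overlap itself.
Tmem151a: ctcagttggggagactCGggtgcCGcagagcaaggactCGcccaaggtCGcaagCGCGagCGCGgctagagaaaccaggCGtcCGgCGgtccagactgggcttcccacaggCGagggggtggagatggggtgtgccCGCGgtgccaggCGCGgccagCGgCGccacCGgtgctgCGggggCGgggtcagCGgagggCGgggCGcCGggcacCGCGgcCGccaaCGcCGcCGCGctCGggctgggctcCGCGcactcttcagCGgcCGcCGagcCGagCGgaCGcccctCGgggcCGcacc
Hap1: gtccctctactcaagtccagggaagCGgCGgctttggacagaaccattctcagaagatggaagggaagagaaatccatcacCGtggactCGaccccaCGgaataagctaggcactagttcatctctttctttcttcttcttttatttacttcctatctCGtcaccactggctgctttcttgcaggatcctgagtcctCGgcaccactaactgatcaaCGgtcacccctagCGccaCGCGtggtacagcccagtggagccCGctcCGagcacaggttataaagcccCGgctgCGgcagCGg
Pax8: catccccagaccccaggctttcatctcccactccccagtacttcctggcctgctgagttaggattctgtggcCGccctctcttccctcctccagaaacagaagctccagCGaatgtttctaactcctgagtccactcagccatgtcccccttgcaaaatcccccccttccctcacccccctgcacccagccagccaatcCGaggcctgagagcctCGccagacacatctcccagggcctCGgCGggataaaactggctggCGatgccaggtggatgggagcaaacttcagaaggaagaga
Ghsr: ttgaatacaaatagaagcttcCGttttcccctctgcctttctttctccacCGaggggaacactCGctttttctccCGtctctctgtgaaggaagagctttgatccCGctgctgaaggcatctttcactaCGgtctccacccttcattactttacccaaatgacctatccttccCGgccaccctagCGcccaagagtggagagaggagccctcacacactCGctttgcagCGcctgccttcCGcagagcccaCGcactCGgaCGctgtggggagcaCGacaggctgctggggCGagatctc
Trhde: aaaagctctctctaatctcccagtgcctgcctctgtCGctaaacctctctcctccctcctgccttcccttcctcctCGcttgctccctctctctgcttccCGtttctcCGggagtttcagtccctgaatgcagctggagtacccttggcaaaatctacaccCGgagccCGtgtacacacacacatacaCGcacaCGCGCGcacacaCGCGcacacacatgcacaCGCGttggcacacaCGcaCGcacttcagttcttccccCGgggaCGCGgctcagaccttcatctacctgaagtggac
Myo15b: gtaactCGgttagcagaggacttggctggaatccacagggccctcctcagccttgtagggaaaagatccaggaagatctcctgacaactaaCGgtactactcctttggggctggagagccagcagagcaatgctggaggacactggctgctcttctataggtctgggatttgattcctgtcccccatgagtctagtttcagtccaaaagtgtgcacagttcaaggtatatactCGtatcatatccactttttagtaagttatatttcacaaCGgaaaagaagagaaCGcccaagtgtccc
The Tmem151a window (chr19:5085442-5085741, minus strand) held 43 CG, a number reached by 3.35% of the 21263 windows of coding genes in the RefSeq table. The Hap1 window (chr11:100356092-100356391, minus strand) held 16, a number reached by 44.8% of windows. The Pax8 window (chr2:24475550-24475849, minus strand) held 7, the Ghsr window (chr3:27371101-27371400, plus strand) 16 and the Trhde window (chr10:114802253-114802552, minus strand) 19. The Myo15b window (chr11:115857675-115857974, plus strand) held 5, the lowest of the 6 and a number reached by 71.6% of windows. At least 1 CG stood in 95.4% of all windows, with a median of 13. By CG number these 6 promoters thus ranged from above to below the median window.

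The signal ranks of those genes show how a list of fixed length separates them. Tmem151a ranked 345, 261 and 491 by total signal among the 748 peaks of replicates 1, 2 and 4 with vitamin C and was outside the 748 in each library without it. In the full lists its widest peak measured 6.55, 5.23 and 7.73 kb with vitamin C and 1.51, 0 and 6.44 kb without, where 0 stands for no peak. Its peak in replicate 4 without vitamin C was therefore about as wide as those with vitamin C, yet stood at percentile 66.7 of its list. Ghsr ranked 237, 637 and 627 without vitamin C and was outside the 748 in every library with it. By percentile of the full lists it stood at 51.5, 70.5 and 72.8 with and 90.1, 15.0 and 73.9 without vitamin C. The cut kept 100% of the list of replicate 2 without vitamin C and 15.8% to 31.5% of the other lists. Its peaks in the full lists measured 3.47, 2.42 and 4.29 kb with vitamin C and 2.23, 2.77 and 5.91 kb without, so widths overlapped between the diets. Pax8 ranked 331, 361 and 608 without vitamin C, with widths of 4.34, 1.48 and 5.34 kb with vitamin C and 2.40, 4.29 and 4.93 kb without, again overlapping. Tubg2 was the member with the widest peaks with vitamin C, at 17.5, 3.07 and 19.5 kb, against 0, 0 and 4.27 kb without, and its groups did overlap by replicate 2.

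The full lists differed mainly in their size. With vitamin C the lists held 2397, 4726 and 4320 peaks in replicates 1, 2 and 4, and without vitamin C 2378, 748 and 2395. The lowest list with vitamin C thus exceeded the highest without it by 2 peaks, and the groups did not overlap. The mean was 3814 ± 1244 peaks with and 1840 ± 946 without vitamin C (SD, n = 3 each). The ratio of geometric means, without over with vitamin C, was 0.443, with an exact two-sided permutation p = 0.1, the smallest that 20 relabellings allow. With the 3 embryos of 1 pregnancy averaged, 1 value stood against 3 and the exact permutation p was 0.5 (4 relabellings) for peak number and 0.75 for covered length. Peaks covered 11.4, 8.69 and 26.97 Mb with and 3.58, 4.15 and 15.0 Mb without vitamin C. Here the groups overlapped, since replicate 4 without vitamin C lay above replicates 1 and 2 with it (ratio 0.437, exact permutation p = 0.3). Marked genes numbered 1811, 1642 and 3387 with and 1019, 572 and 2054 without vitamin C, and overlapped through the same library (ratio 0.492, exact permutation p = 0.3). Median peak width was 3930, 1410 and 4685 bp with and 1322, 4507 and 4886 bp without (ratio 1.04, exact permutation p = 0.9). In the labels, the libraries of replicate 1, of replicate 2 and of replicate 4 have consecutive library numbers, and each such pair holds 1 library of each diet from embryos of like sex. Peak number, covered length and marked genes were lower without vitamin C in 3 of 3 such pairs (exact permutation within pairs p = 0.25, the smallest that 8 relabellings allow). In equal lists covered length and marked genes were lower in 2 of 3. No label says that such a pair shared a batch. Replicate 2 with and replicate 1 without vitamin C stood apart by their narrow peaks, with 20.3% and 25.7% of peaks under 1 kb against at most 2.67% in the other 4 lists. In a whole headfold, fewer cells with the mark and less mark per cell cannot be told apart, and the part of sequencing depth in the length of a list was not tested.

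**Figure D1:**
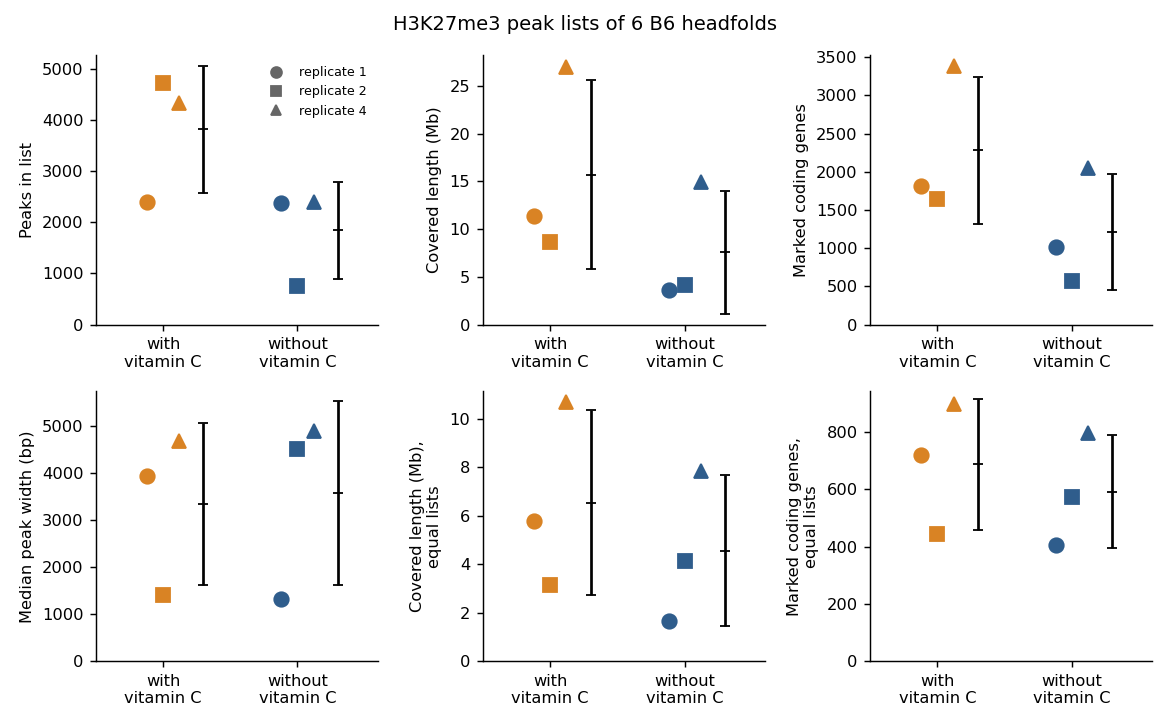
Peak number, covered length, marked genes and median peak width of the 6 lists, and covered length and marked genes after reduction to 748 peaks; points are single headfolds (shape by replicate) and black bars the mean ± SD. Peak number keeps the groups apart (2397 and more with, 2395 and fewer without vitamin C), and in the other panels they overlap.

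With equal lists the log2 difference, without minus with vitamin C, was -0.62 in covered length against -1.20 in full lists, and -0.21 in marked genes against -1.02. The 748 peaks covered 5.78, 3.16 and 10.7 Mb with and 1.66, 4.15 and 7.86 Mb without vitamin C (ratio 0.653, exact permutation p = 0.5). They marked 720, 445 and 898 genes with and 407, 572 and 797 genes without (688 ± 228 against 592 ± 196, SD, n = 3 each; ratio 0.864, exact permutation p = 0.7). The lowest value of each diet came from the library with narrow peaks, and replicate 4 was highest in both diets. Replicate 1 without vitamin C also held 120 peaks under 1 kb among its 748, and 23 among its 50 strongest, whereas the other 5 lists held 0 to 21 among 748 and 0 to 3 among 50.

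Across genes, the mark was found in more libraries with vitamin C than without it, by a wider margin in full than in equal lists. Marked genes and peaks were not in the same order, since the longest list (4726 peaks) marked 1642 genes and a list of 2395 peaks marked 2054. Of 3542 coding genes marked in at least 1 full list, 2573 (72.6%) were marked in more libraries with vitamin C, 94 (2.65%) in more without and 875 in as many. With equal lists 1205 genes were marked, and 515 (42.7%) were marked in more libraries with vitamin C against 287 (23.8%) in more without. In the full lists 421 genes were marked in 6 of 6 libraries, and 178 with equal lists. A complete separation in the full lists was seen for 58 genes in 3 of 3 with and 0 of 3 without vitamin C (0.265% of coding genes), and for 0 genes (0.0%) in the opposite direction. Beside these stood 310 genes marked in 3 of 3 with and 1 of 3 without vitamin C. In 307 of them the library without vitamin C was replicate 4, in 3 it was replicate 1 and in 0 replicate 2. Leaving out replicate 4 without vitamin C accordingly gave 365 separating genes in place of 58. Leaving out replicate 1 or replicate 2 with vitamin C gave 196 or 211, and leaving out any of the other 3 gave 58 to 61. The members depended on the settings too. With peaks at or above the median maximum signal of their list the count was 59, but 7 of the 58 were among them, and with a window of 0 kb 31 of the 58 kept the pattern. Of 1079 genes marked in 1 library with vitamin C and 0 without, 969 were marked in replicate 4 with vitamin C alone.

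**Figure D2:**
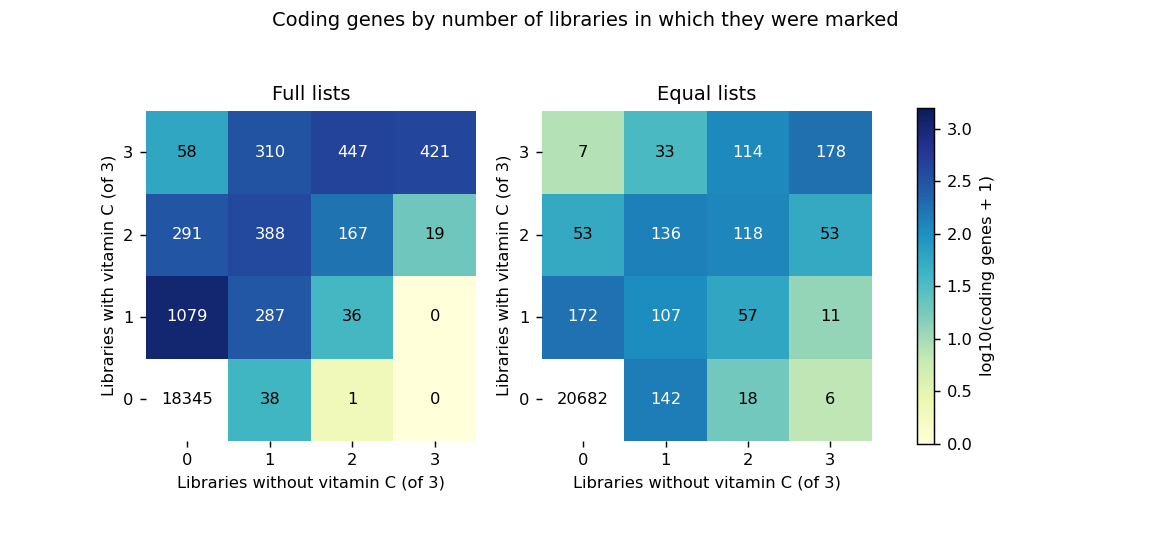
Number of coding genes for each combination of libraries with (vertical) and without vitamin C (horizontal) in which a gene was marked, for full and equal lists; colour gives log10 of the number plus 1 and the corner at 0 and 0 is left white. Counts lean to the upper left in the full lists (58 against 0 in the corners) and stand at 7 against 6 in the corners with equal lists.

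By marked genes, the other lists were largely nested in that of replicate 4 with vitamin C. All 572 genes of replicate 2 without vitamin C (100% of that list) were also marked in replicate 4 with vitamin C, as were 2028 of the 2054 genes (98.7%) of replicate 4 without vitamin C. These shared genes made up 16.9% and 59.9% of the 3387 genes of replicate 4 with vitamin C. The longest list, replicate 2 with vitamin C, held 81.0, 90.4 and 65.1% of the genes of replicates 1, 2 and 4 without. Among single peaks, 0.134% of replicate 2 and 0.459% of replicate 4 without vitamin C met no peak in any library with vitamin C, against 13.2% in replicate 1. In the other direction the shares were 11.3%, 33.3% and 45.6% in replicates 1, 2 and 4 with vitamin C. With equal lists the shares came to 10.8%, 11.6% and 13.6% with and 24.2%, 12.6% and 10.4% without vitamin C. A comparison of lists of like length is at hand in replicate 1 with vitamin C (2397 peaks) and replicate 4 without (2395 peaks). They marked 1582 genes in common, with 229 only in the first and 472 only in the second. Their overlap, the Jaccard index of covered bases, was 0.590 and the highest of all 15 pairs. Over all pairs the mean index was 0.299 within and 0.315 between diets (exact one-sided permutation p = 0.6), and 0.310 and 0.350 with equal lists (p = 0.9 by the same exact permutation). Pairs of 1 diet thus had, on average, a slightly lower index than pairs of different diets, a difference within the spread of the 20 relabellings.

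The 58 genes marked only with vitamin C in the full lists had modest peaks. The widest on average was that of Troap, a spindle-associated protein, with 15.8, 1.67 and 16.6 kb in replicates 1, 2 and 4 with vitamin C. No library without vitamin C had a peak within 1 kb of its ends. In replicates 2 and 4 of that group the nearest peak stood 2424 and 2270 bp from the gene. Next came Fam107a, an actin-binding protein (3.98, 1.63 and 14.4 kb), and a peak over Tcap, of the sarcomere, and Pnmt, which makes adrenaline (6.86, 1.73 and 8.36 kb). Gipc3, a hearing gene, followed with 3.99, 1.41 and 10.8 kb and Ripk3, a kinase of necroptosis, with 3.67, 1.42 and 10.9 kb. In each of these genes replicate 2 with vitamin C had the narrowest peak. The further members by width were Mei1, which acts in meiotic recombination, Rdh13, a retinol dehydrogenase, the clustered protocadherins Pcdhgc4 and Pcdhgc5, Tinagl1, Galnt9, a glycosyltransferase, St14, a membrane serine protease of epithelia, Sigirr, a negative regulator of interleukin signalling, and Irx1, a homeobox factor. Irx1 measured 4.77, 1.58 and 5.74 kb, and the nearest peak of replicate 4 without vitamin C stood 2243 bp from the gene. Lower in the order stood Ckm, the creatine kinase of muscle, Prdm1, a repressor that acts in germ cell specification, Cldn4 of tight junctions, Mymx of muscle fusion and Pcgf5, a subunit of Polycomb repressive complex 1 (4.53, 1.37 and 2.41 kb). The set had 1 member among neural plate, placode and ectoderm regulators (Irx1) and none among the Hox genes.

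By rank within their list, the peaks at these 58 genes lay at a median percentile of 20.2, 42.0 and 52.3 in replicates 1, 2 and 4 with vitamin C, where 100 is the strongest peak. The 421 genes marked in 6 of 6 libraries lay at 88.9, 90.6 and 94.6 there, and at 78.0, 65.9 and 90.2 in the libraries without vitamin C. Members of the 58 were spread from percentile 0.834 (Fads6 in replicate 1) to 97.8 (Troap in replicate 1). Both sets were chosen by their calls, the 421 by a peak in every list and the 58 by none without vitamin C. A gap in rank can follow from that choice, and this was not tested. With equal lists 52 of the 58 genes were marked in no library, and the other 6 in 1 or 2 libraries with vitamin C. A share of 3 of the 58 had a peak of a library without vitamin C elsewhere in the gene body. The nearest such peak stood at a median of 144, 624 and 134 kb in replicates 1, 2 and 4. It stood far closer at Troap (replicates 2 and 4) and at Irx1 (replicate 4), as given above. The 58 genes lay on 19 chromosomes and 10 of them shared a peak with a neighbour in 5 pairs, so they stand for fewer independent regions than genes.

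**Figure D3:**
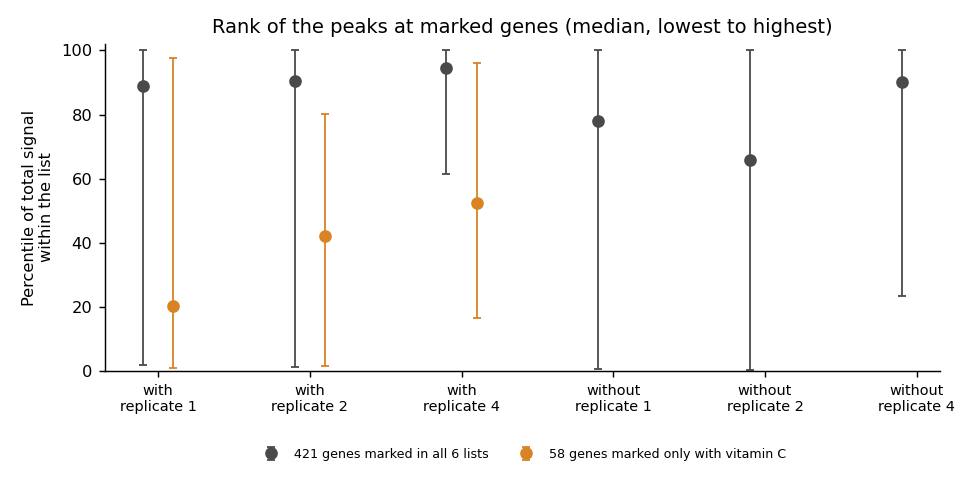
Percentile of total signal within each list for peaks at the 421 genes marked in all 6 lists and the 58 marked only with vitamin C; points are medians over genes and bars run from the lowest to the highest gene. The 58 genes have medians of 20.2 to 52.3 against 88.9 to 94.6 for the other set in the same 3 libraries. Both sets were chosen by their calls, and a gap in rank can follow from that choice.

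Regions were counted without the use of genes. Merging the peaks of the 6 full lists gave 5815 regions, of which 507 were called in 6 of 6 libraries, with a median width of 11.3 kb. Of 2841 regions called in a single library, 2517 came from a library with vitamin C. Peaks that met no peak of the other diet numbered 270, 1575 and 1968 in replicates 1, 2 and 4 with vitamin C. Without vitamin C they numbered 314, 1 and 11. Most thus came from the longest lists, replicates 2 and 4 with vitamin C. Regions called in 3 of 3 libraries with and 0 of 3 without vitamin C numbered 91 (1.56%), and 0 (0.0%) were called the other way. Their median width was 4.63 kb (0.515 to 14.4 kb), 60 lay at an end of a coding gene and 20 met no coding gene. None lay at Troap or Irx1. The widest lay at Fam107a (chr14:8307746-8322098), and others at Bmp7, a signalling ligand of the dorsal ectoderm (chr2:172932953-172944060, 11.1 kb), and Ripk3 (chr14:55780869-55791803, 10.9 kb). With equal lists 1263 regions remained, with 5 (0.396%) called only with and 7 (0.554%) only without vitamin C. The 5 lay at Kcna7, Ntf5 and Lhb (chr7:45404977-45420759), Hap1 (chr11:100351720-100361644), Tmem151a (chr19:5079393-5087124), Epas1 (chr17:86750297-86757026) and in 1 place away from coding genes (chr9:124256280-124258040). The 7 lay at Kcnk15 and Rims4 (chr2:163851008-163859679), Pcdh10 (chr3:45376728-45383186), Ghsr (chr3:27369763-27375672), Trhde (chr10:114798482-114803687), Myo15b (chr11:115857377-115862467), Pax8 (chr2:24472637-24477583) and inside Rap1gap2 (chr11:74587410-74592014).

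The broadest domains were those of the Hox clusters, whose transcription factors pattern the hindbrain and trunk. The region over Hoxc spanned 168.8 kb, that over Hoxa 118.1 kb and that over Hoxb 116.0 kb. Peaks covered 70.6, 73.5 and 99.2% of the Hoxa cluster in replicates 1, 2 and 4 with vitamin C and 27.1, 55.7 and 87.6% without. For Hoxc the values were 61.1, 77.0 and 99.5% against 26.9, 44.9 and 96.2%. In both clusters the library highest in its group was replicate 4, and replicate 4 without vitamin C lay above replicates 1 and 2 with it. The Hoxc cluster was broken into 10, 34 and 2 peaks with and 19, 9 and 4 peaks without vitamin C. Coverage of Hoxb was 54.8, 55.5 and 79.2% against 19.9, 53.4 and 70.1%, and that of Hoxd 57.0, 68.9 and 93.6% against 32.7, 52.4 and 85.3%. Next in width came an array of 5S ribosomal RNA genes with Gas8 (90.2 kb), which was covered over 96.2% to 100% in every library. Tbx3, a factor of limb and heart development, had 62.1, 51.5 and 100% of its 47.0 kb covered with and 18.6, 40.8 and 78.3% without vitamin C. Zic1 and Zic4, zinc finger factors of the dorsal neural tube, had 26.1, 48.5 and 99.6% of 46.4 kb covered with and 15.1, 24.7 and 69.8% without. The groups overlapped in all 14 domains examined (4 Hox clusters and the 10 widest regions called in 6 of 6 libraries), with full and with equal lists. The 14 are not separate loci, since regions among the 10 widest lie over each of the 4 Hox clusters. Without replicate 4 of the diet lacking vitamin C, coverage with vitamin C lay above that without in 13 of the 14 domains in full lists and in 5 of 14 in equal lists. Hox loci enter both counts repeatedly. The array of 5S genes also counted in both, at 97.26% or more with against 96.95% or less without vitamin C. Over all 507 regions the median share covered was 67.6, 47.0 and 100% with and 24.1, 51.9 and 81.6% without vitamin C. The bounds of these regions, and of the 10 widest, came from the merged peaks of the same 6 lists. A list whose peak spans a region thus stands at 100% by construction, the median of replicate 4 with vitamin C. A gap in coverage can follow from such bounds, and this was not tested.

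**Figure D4:**
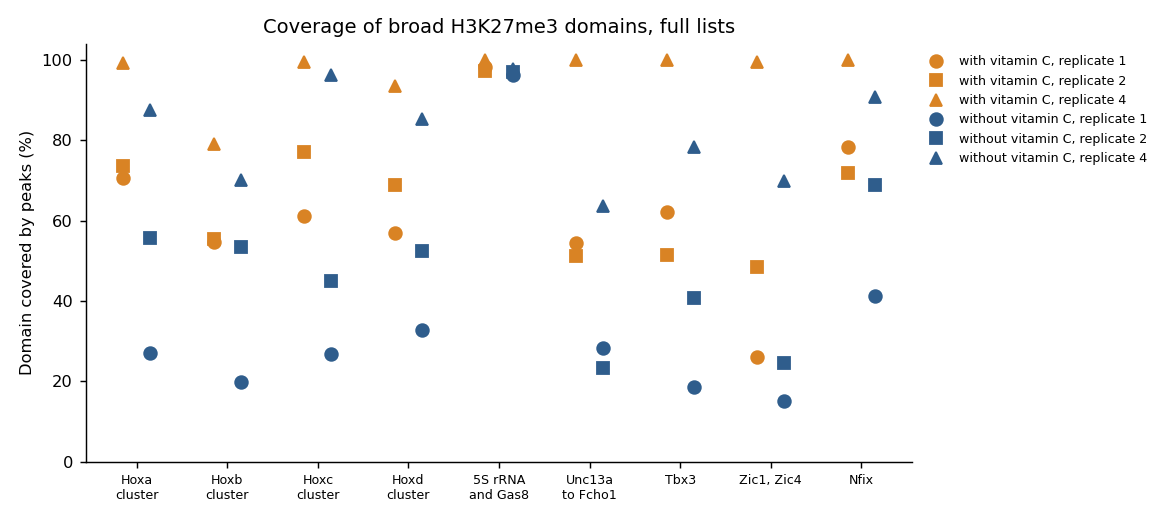
Percent of each domain covered by peaks, by library (full lists), for the 4 Hox clusters and 5 of the widest other regions. The bounds of these 5 come from the merged peaks of the same lists. Replicate 4 is highest in both diets at each of the Hox clusters, and the array of 5S genes is covered by 96.2% or more in all 6 lists.

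Signal ranks within equal lists were compared for the 200 regions held by all 6. In 4 of them (2.0%) each library with vitamin C ranked the region nearer the top than each library without it, and in 3 (1.5%) the reverse held. The widest gap between median ranks was at Dlx4, a homeobox factor of the branchial arches, at ranks 74, 48 and 119 with and 541, 508 and 151 without vitamin C. The others nearer the top with vitamin C lay at Shroom1 and Sowaha, at Nfkb2 and Psd and away from coding genes. Nkx1-1, a homeobox factor, ranked 27, 31 and 67 without and 68, 522 and 85 with vitamin C, and Znrf4 and Gm8909 followed the same order. When peaks less than 5 kb apart were joined before the lists were made equal, 14 and 12 of 257 regions separated in the respective directions. Dlx4 and Nkx1-1 were among them, with Nkx2-3 and Fev added on the side with vitamin C and Wnt7b, Dll4, Dhh, Ascl2 and Pcdh8 on the other.

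Gene lists were then read by role, as the number of members marked in more libraries with vitamin C, in more without and in as many. These lists were chosen with earlier results of the same data known, so they describe the loci and carry no test. They share members, with 29 of 618 symbols in more than 1 list. Of all 21887 coding genes, 16.2% were marked in at least 1 full list and 83.8% in none, 11.8% in more libraries with and 0.429% in more without vitamin C. With equal lists 5.51% were marked in at least 1 library, 2.35% in more with and 1.31% in more without. Among genes marked in at least 1 full list, 72.6% were marked in more with and 2.65% in more without. For equal lists these shares of marked genes were 42.7% and 23.8%. No list of the 23 had its 3 libraries with vitamin C all above its 3 libraries without, in full or in equal lists. In full lists replicate 4 with vitamin C had the highest share in 22 lists and replicate 2 without vitamin C the lowest in 21, ties included. In equal lists replicate 4 with vitamin C was highest in 14 and replicate 4 without it in 10. The lowest share was that of replicate 1 without vitamin C in 14. It was that of replicate 2 with vitamin C in 10 and of replicate 2 without vitamin C in 4. The last list, 30 housekeeping genes, was marked in 0 libraries.

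Hox genes were marked almost throughout. Of the 16 genes of groups 9 to 13, 15 were marked in 6 of 6 libraries, and the exception was Hoxd11, with no peak in replicate 2 without vitamin C. Of groups 1 to 4, 5 of 12 members were marked in more libraries with vitamin C, among them Hoxa2, Hoxa4, Hoxb2 and Hoxb3, and 0 in more without. Hoxc8 had peaks of 8.00, 4.55 and 126.6 kb with and 0, 0 and 49.6 kb without vitamin C. With equal lists the share of groups 5 to 8 was 90.9, 81.8 and 100% with and 9.09, 81.8 and 100% without vitamin C, so a single library made that difference.

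Among regulators of the brain and neural tube, 11 of 29 anterior neural plate and eye field genes were marked in more libraries with vitamin C and 0 in more without. The counts were 9 and 0 of 19 for midbrain and hindbrain, 11 and 0 of 22 for the ventral neural tube and the Shh pathway, 20 and 0 of 28 for the dorsal neural tube and neural crest, and 15 and 1 of 40 for neurogenic factors. Members marked in 0 libraries numbered 2, 2, 4, 2 and 2 in the order of these lists. Of all coding genes marked in at least 1 full list, 72.6% were marked in more libraries with vitamin C. The share among marked members was lower than that in all of these lists but the dorsal one. Fgf8, the ligand of the midbrain-hindbrain organizer, had peaks of 7.42, 1.40 and 14.4 kb with and 0, 0 and 5.37 kb without vitamin C. Shh, the ligand that patterns the ventral tube, had 12.7, 1.22 and 12.8 kb with and 0, 0 and 13.4 kb without. Pax3, of the dorsal tube and neural crest, had 4.74, 4.01 and 24.7 kb with and 0, 0 and 9.08 kb without, and Otx1 9.81, 2.59 and 13.4 kb with and 0, 0 and 12.5 kb without. In each of these genes the mark without vitamin C was found in replicate 4 alone, at a width within or near the range with vitamin C. Lhx4, a factor of motor neurons and pituitary, had 7.81, 0 and 28.1 kb with vitamin C and no peak without. Otx2 and Sox2, factors that headfold cells are known to express, had a peak only in replicate 4 with vitamin C (5.55 and 3.53 kb), and Hesx1 had none in any library. Peaks of a silencing mark cannot show which genes the tissue expressed, so the tissue label was checked no further. With equal lists the counts came to 5 and 4 for the anterior list, 6 and 4 for midbrain and hindbrain, 10 and 3 for the ventral, 11 and 3 for the dorsal and 17 and 3 for the neurogenic list.

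Among ligands, the order of libraries was alike. Some genes are counted again here, since Bmp4 and Bmp7 also stood in the dorsal list and Fgf8 in that of midbrain and hindbrain. Of 19 Wnt genes, 10 were marked in more libraries with vitamin C and 1 in more without, and of 26 Bmp, Gdf and Fgf ligands and antagonists 16 and 1. Members marked in 0 libraries numbered 0 and 3. In both lists the share of marked members that leaned to vitamin C was below the 72.6% of all marked coding genes. Wnt6, a ligand of the surface ectoderm, had peaks of 29.9, 4.79 and 30.6 kb with vitamin C and 0, 0 and 29.1 kb without. Bmp4, of the dorsal ectoderm, had 2.08, 2.86 and 6.60 kb with and 0, 0 and 7.35 kb without. Bmp7 had 2.94, 0 and 10.5 kb with vitamin C and no peak at its ends without. The share of Bmp, Gdf and Fgf members marked was 65.4, 42.3 and 84.6% with and 23.1, 19.2 and 73.1% without vitamin C. After reduction to equal lists it was 30.8, 11.5 and 26.9% against 15.4, 19.2 and 23.1%, with 6 members on the side with vitamin C and 4 on the other.

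Regulators of other lineages followed. The counts in more libraries with and in more without vitamin C were 10 and 1 of 29 for placode and surface ectoderm, 9 and 0 of 29 for mesoderm, somite and muscle, 7 and 0 of 24 for heart and vessels and 10 and 0 of 20 for endoderm and gut. Members marked in 0 libraries numbered 7, 8, 3 and 2 in that order. In each list the share of marked members that leaned to vitamin C was below the 72.6% of all marked coding genes. Foxl2 had peaks of 7.31, 4.68 and 27.1 kb with and 0, 0 and 16.2 kb without vitamin C, and Hhex, of the anterior endoderm, 6.54, 4.42 and 6.07 kb with and 0, 0 and 5.00 kb without. Gata4, of heart and endoderm, had 5.75, 7.80 and 30.2 kb with and 0, 3.48 and 30.1 kb without. With equal lists the counts were 8 and 1 for placode and surface ectoderm, 9 and 4 for heart and vessels and 8 and 2 for endoderm and gut. The mesoderm list turned with equal lists, where 4 members were marked in more libraries with vitamin C and 6 in more without. Of 24 markers of blood, endothelium and extra-embryonic cells, 16 were marked in 0 libraries, 4 in more with and 1 in more without vitamin C. That list turned as well with equal lists, to 0 in more with and 2 in more without. The single member on the side without vitamin C in full lists was Esam, an adhesion molecule of endothelium, at 6.08, 0 and 8.34 kb with and 1.23, 3.33 and 7.08 kb without.

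**Figure D5:**
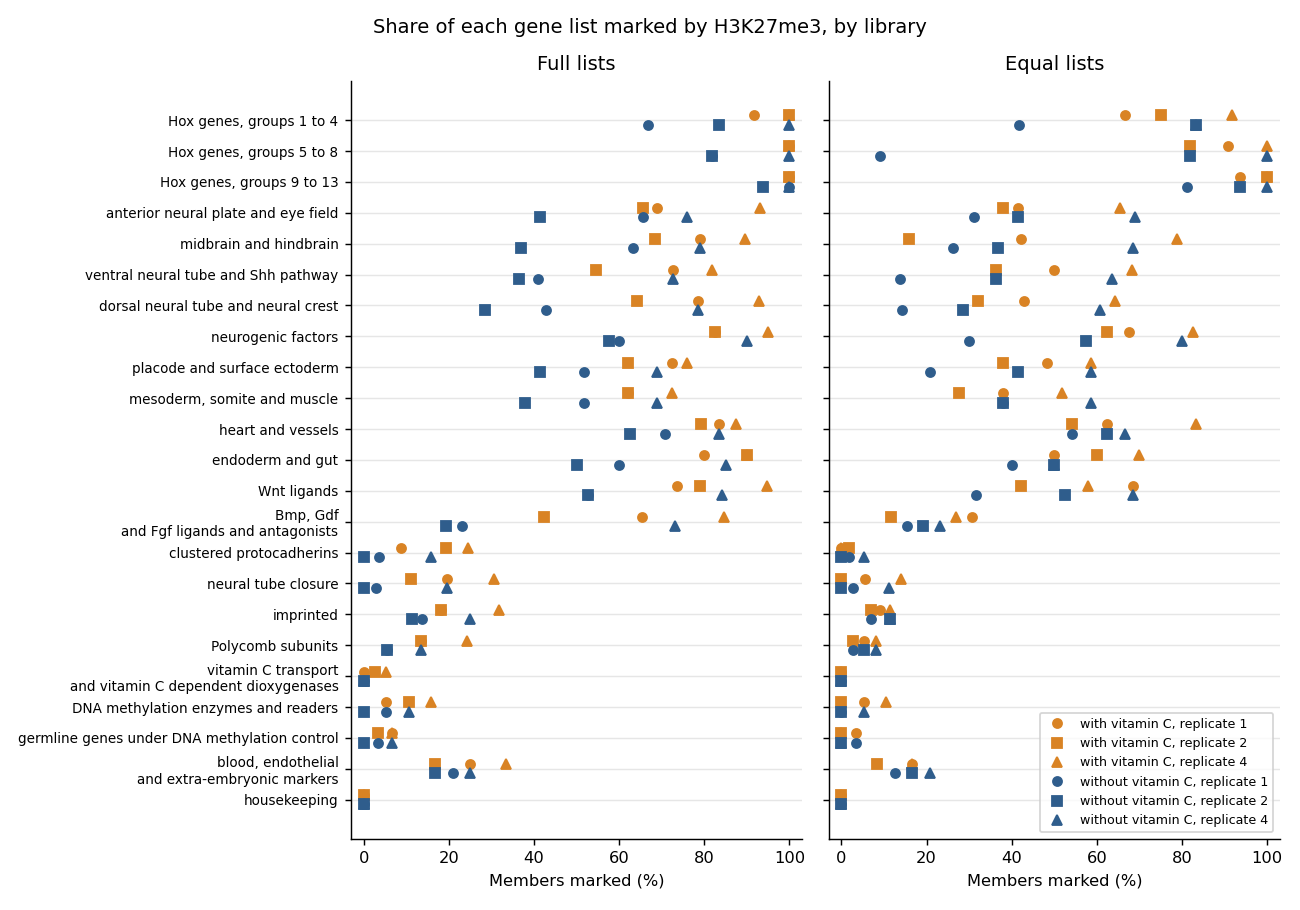
Share of the coding members of 23 gene lists that were marked in each library, for full lists (left) and equal lists (right). In the full lists replicate 4 with vitamin C is highest or tied in 22 lists, and in both panels the symbols of the diets overlap in every list.

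Lists closer to the mark itself and to vitamin C varied in how often they were marked, against 83.8% of all coding genes marked in 0 libraries. Of 37 Polycomb subunits 27 were marked in 0 libraries, 6 in more libraries with and 1 in more without vitamin C. With equal lists these Polycomb counts were 33, 1 and 1. Cbx8, which reads the mark, was marked in 6 of 6 libraries (23.4, 4.36 and 31.9 kb with, 1.84, 20.9 and 29.8 kb without). Pcgf1, of the non-canonical complex, had peaks of 0, 0.875 and 19.2 kb with vitamin C and none without. Kdm6b, an eraser of the mark, had 0, 0.859 and 3.03 kb with vitamin C and none without. Of 38 vitamin C transporters and vitamin C dependent dioxygenases, 36 were marked in 0 libraries, and the other 2 were Kdm6b and P4ha3, a collagen prolyl hydroxylase with a peak in replicate 4 with vitamin C only. Among 19 DNA methylation enzymes and readers 16 were marked in 0 libraries. Dnmt3a had a peak in replicate 4 with vitamin C only, and Gadd45b was marked in 3 of 3 with and 2 of 3 without. Of 30 germline genes under DNA methylation control 28 were marked in 0 libraries. Of 44 imprinted genes 30 were marked in 0 libraries, 8 in more libraries with and 1 in more without vitamin C. With equal lists these last counts were 2 and 3. The growth factor Igf2 had peaks of 2.59, 2.38 and 3.77 kb with and 0, 0 and 10.0 kb without vitamin C, and Dlk1 4.22, 1.69 and 16.4 kb with and 0, 4.16 and 9.84 kb without.

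Of the genes known to be needed for neural tube closure, 25 of 36 were marked in 0 libraries, a smaller share than the 83.8% of all coding genes. Of all coding genes marked in at least 1 full list, 72.6% were marked in more libraries with vitamin C, and the remaining 11 closure genes all were. They included Grhl2, an epithelial factor, with 5.47, 1.23 and 5.95 kb with and 0, 0 and 4.92 kb without, and Tfap2a, with 14.0, 0 and 18.3 kb with and 0, 0 and 15.6 kb without. Grhl3 was marked in 2 of 3 and 1 of 3. The share of the list was 19.4, 11.1 and 30.6% with and 2.78, 0 and 19.4% without vitamin C, and 5.56, 0 and 13.9% against 2.78, 0 and 11.1% with equal lists. In equal lists 2 members were marked in more libraries with vitamin C, 0 in more without and 31 in no library. Of 57 clustered protocadherins, adhesion proteins that give neurons their identity, 39 were marked in 0 libraries, 13 in more libraries with vitamin C and 0 in more without. Most marked members thus leaned to vitamin C, as did 72.6% of all marked coding genes. With equal lists 0 members were marked in more libraries with vitamin C and 3 in more without, so the direction depended on the length of the lists.

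The X chromosome set 1 library apart. It made up 10.9% of the covered length in replicate 2 with vitamin C, a female, against 0.533% and 1.12% in replicates 1 and 4 and 1.40, 1.24 and 1.99% without vitamin C. The 681 X peaks of that library had a median width of 1256 bp and marked 88 of 966 X-linked coding genes. Both other females with a long list of wide peaks, replicate 4 of either diet, had 57 and 51 X peaks. With autosomes alone the 58 separating genes remained 58.

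The 129 background, with 3 headfolds per diet of the same genotype, served as a comparison. The difference without minus with vitamin C in covered length was -0.43 on the log2 scale in 129 and -1.20 in B6. The difference between backgrounds was 0.77 (exact permutation within background, 400 relabellings, p = 0.53). For peak number the values were -0.01 in 129 and -1.17 in B6, and the difference between backgrounds was 1.17 (p = 0.2 by the same exact permutation). For marked genes in full lists they were -0.20 and -1.02, a difference of 0.82 (exact permutation p = 0.37). For marked genes with equal lists it was 0.01, from -0.20 in 129 and -0.21 in B6 (p = 0.995 by the same exact permutation). Of the 58 genes marked only with vitamin C in B6, 0 were so in 129, where 3 of all 21887 coding genes (0.0137%) showed that pattern. There 13 were marked in more libraries with vitamin C, 8 in more without and 37 in as many, of which 7 were marked in 6 of 6 libraries and 4 in 0. Of the 3542 genes marked in at least 1 full B6 list, 898 were marked in more 129 libraries with vitamin C and 466 in more without. Of the 7 genes marked only with vitamin C in equal lists, 4 were marked in more 129 libraries with vitamin C and 0 in more without. Of the 6 with the opposite pattern, 1 fell on each side. Over all coding genes, the equal lists of 129 gave 467 in more libraries with vitamin C and 199 in more without.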

How the data were processed

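H3K27me3 CUT&Tag libraries of single E8.5 headfolds were trimmed, aligned and called with cutadapt, Bowtie2, Picard and SEACR on mm10 per the submitters' processing notes. For their versions, settings and any use of IgG libraries the entry is: not given in the sources used here. The authors deposited 1 stringent peak list per library, with position, total signal and maximum signal in 6 columns; the deposited signal values carry no visible scaling and served only as ranks within a list. No list states a depth, so the precision it gives is unknown.

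Samples were grouped by their labels. Genes came from RefSeq (GRCm38.p6, without strand in the table), so either gene end with a window of 1 kb was used. Regions are peaks of the 6 lists merged by overlap of 1 bp. Groups were compared by exact permutation (20 relabellings) on the log2 scale, and backgrounds by 400 relabellings. Replicate numbers follow accession order and pair nothing by themselves. Members, the 23 gene lists (610 of 618 symbols matched), tests and named genes were chosen with earlier results of these data known. Named genes are all that separated the diets completely (the first 15 by mean width from the full lists, with further examples chosen after their values were seen), the list members with the largest difference in marked libraries with examples added after seeing values, the 10 widest regions and the regions whose ranks separated. A few genes of these sets are not reported here. Counting of genes, regions and permutation were tested on simulated data. Alternatives were filters on width, signal and chromosome, joined peaks, other windows, other equal lists, labels permuted within sex or within consecutive libraries, embryos of 1 pregnancy averaged, and each library left out. Tables were computed with pandas 2.3.3 and NumPy 2.4.6 in Python 3.11.15 and drawn with Matplotlib 3.10.9.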

Additional observations from a re-analysis of the deposited data

How the results depend on the processing

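No test of diet passed 0.05 under any alternative that was run, and designs of this size (3 against 3, or fewer) could not have done so. Peak number, covered length and marked genes kept their direction in all of them. With peaks at or above the median maximum signal of their list, the log2 difference in median peak width turned to -0.13. Under the same filter, equal lists gave 2 genes and 2 regions only with vitamin C, 2 genes and 3 regions only without it, 1 domain of 14 apart, and 1 and 0 regions ranked nearer the top with and without vitamin C. With lists of equal covered length the log2 difference in marked genes turned to 0.52, the separating genes were 2 only with and 1 only without vitamin C, the regions 0 and 2, and the separating ranks 1 and 1. A window of 0 kb left 32 genes only with vitamin C in full and 4 in equal lists, and peaks anywhere in the gene body 4 in equal lists. Promoter windows, added after seeing the data, gave 19 and 3. Where peaks had to cover 50% of a region, 14 regions separated in full lists, and 2 with and 1 without vitamin C in equal lists. Equal lists by maximum signal gave 3 genes only without vitamin C and 1 and 0 separating ranks. Lists of 500 peaks gave 2 and 0 separating ranks. After peaks were joined, also an alternative added later, 11 genes and 10 regions separated with vitamin C and ranks in 14 and 12 regions. Without the 2 libraries of narrow peaks, added later too, 220 genes and 278 regions separated with vitamin C and 3 regions without in full lists. In equal lists these were 56 genes and 44 regions with and 17 genes and 24 regions without, ranks 38 and 57, and 1 domain.

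Leaving out each B6 library in turn gave log2 differences of -1.48 to -0.62 for peak number, -1.85 to -0.72 for covered length, -1.50 to -0.58 for marked genes and -0.48 to 0.66 for median width. With equal lists they were -0.50 to 0.03 for marked genes, which turned without replicate 4 with (0.01) or replicate 1 without vitamin C (0.03), and -1.14 to -0.02 for covered length. The excess of overlap within diets was -0.0603 to 0.105 (0.105 without replicate 4 of the group lacking vitamin C) and -0.0683 to 0.0416 with equal lists. Separating genes only with vitamin C ran from 58 to 365 and regions from 92 to 477 (477 without replicate 4 lacking vitamin C, 338 and 245 without replicates 1 and 2 with it). Only without vitamin C they were 0 to 1 and 0 to 2. With equal lists, 7 to 47 genes and 5 to 37 regions separated with vitamin C (both highest without replicate 2 of that group). Without vitamin C it was 6 to 23 genes and 8 to 30 regions, both highest when replicate 2, the shortest list, was left out. Without that list 59 and 66 regions separated by rank, the upper ends of 10 to 59 and 7 to 66. Domains apart numbered 0 to 13. Fewer libraries make a complete separation easier by construction. The difference between backgrounds ran from 0.29 to 1.42 in covered length and from -0.24 to 0.29 in equal-list genes over the 12 libraries. The labels carry no shared replicate numbers. With libraries of like sex and consecutive number as a replicate block, added after seeing the data, the log2 differences of -1.17 for peak number, -1.20 for covered length and -1.02 for marked genes had an exact permutation p of 0.25, and with equal lists p was 0.75 for marked genes and 0.5 for covered length. The block changed no call. No value was taken for covered length with lists of equal covered length, which are equal by construction.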
